A study of Mus musculus with 10 samples.

Results

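The genes examined here were 10 genes of hepatic de novo lipogenesis and of the factor that drives it, Srebf1, Acly, Me1, Acaca, Acacb, Fasn, Elovl6, Scd1, Thrsp and Pnpla3. They were chosen by symbol from the 41388 Ensembl genes of the liver count files, and all 10 were found. Liver RNA was sequenced from 2 WT refed, 3 WT fasting and 5 NAMPT LKO fasting mice, with 1 library per mouse, to ask how hepatocyte NAMPT, the rate-limiting enzyme of NAD salvage, shapes the response to fasting. NAMPT LKO mice carry Nampt with LoxP sites and Albumin-cre, a deletion that the study describes as specific to hepatocytes. WT mice were littermates with the same LoxP sites and no cre, so all 10 mice carried the floxed allele. All were about 12 weeks old and of the C57B/6J strain by their labels. Fasting groups were fasted for 24 h, and WT refed mice were fasted for 22 h and given food again for 2 h. These times are those of the sample labels. The text of the study describes a shorter fast and randomly fed controls, and the files do not settle which is right. No NAMPT LKO refed library was analysed here, so the effect of refeeding on the knockout was not measured.

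De novo lipogenesis makes fatty acids from acetyl-CoA in the cytosol of the hepatocyte. Citrate leaves the mitochondrion and is split to acetyl-CoA, a carboxylase turns that into malonyl-CoA, and fatty acid synthase builds palmitate from it with NADPH, after which elongases and desaturases shape the chain. In liver the genes of this pathway are known to rise after a meal through SREBP-1c, which answers to insulin, and through ChREBP, which answers to glucose, and to fall in fasting.

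The deposited totals ranged from 30603080 to 43434139 counts per library. The mitochondrial genome took between 7.42% and 12.9% of the counts in 9 libraries and 21.1% in NAMPT LKO fasting liver 5. That library also stood apart in base composition. Over 13402 genes, its deviation from the mean of all libraries followed the GC content of the gene with a Spearman rho of -0.56, against -0.032 to 0.26 in the other 9, and several results below are also given without it. Nampt itself was at 63.0, 73.4 and 141 CPM (library-scaled counts after TMM normalization, the unit of all expression values below unless RPKM or deposited CPM is named) in the WT fasting livers and between 11.8 and 15.3 CPM in the NAMPT LKO fasting livers, a log2 fold change of -2.81 (SE 0.22, edgeR adjusted p = 0.00101). The groups did not overlap, as the labels require. The hepatocyte markers Alb, Apoa1, Ttr, Tat, Cyp2e1 and Ass1 together held 68367 to 105491 deposited CPM, which are scaled by library total alone, in every liver.

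Promoter sequence is shown for Thrsp and Fasn, which were lower in both fasting groups and were called in NAMPT LKO fasting livers. It is also shown for Elovl6, which was lower in both fasting groups without being called, and for Acacb. The log2 fold change of Acacb against WT refed was above 0, at 0.21 in WT fasting and 0.16 in NAMPT LKO fasting livers, and passed no test. Each line gives the 250 bases before a RefSeq start site of the gene from 5′ to 3′, on GRCm38.p6, in lower case with CCAAT boxes in capitals on either strand (CCAAT or its complement ATTGG). The windows are chr7:97417551-97417800 on the minus strand for Thrsp, chr11:120824548-120824797 on the minus strand for Fasn, chr3:129532136-129532385 on the plus strand for Elovl6 and chr5:114165268-114165517 on the plus strand for Acacb. A RefSeq start can differ from the end of the gene in the deposited files. That of Acacb lies inside the span of the gene given there, and the Fasn window begins beyond it.
Thrsp: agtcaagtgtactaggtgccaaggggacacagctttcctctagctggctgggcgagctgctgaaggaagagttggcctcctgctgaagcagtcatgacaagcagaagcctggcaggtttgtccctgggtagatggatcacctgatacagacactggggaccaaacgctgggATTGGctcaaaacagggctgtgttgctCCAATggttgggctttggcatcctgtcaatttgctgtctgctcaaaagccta
Fasn: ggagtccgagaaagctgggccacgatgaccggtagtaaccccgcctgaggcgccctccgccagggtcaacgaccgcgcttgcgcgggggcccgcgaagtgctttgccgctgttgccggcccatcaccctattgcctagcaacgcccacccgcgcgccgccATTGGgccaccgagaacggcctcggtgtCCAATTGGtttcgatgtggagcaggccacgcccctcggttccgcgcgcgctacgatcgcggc
Elovl6: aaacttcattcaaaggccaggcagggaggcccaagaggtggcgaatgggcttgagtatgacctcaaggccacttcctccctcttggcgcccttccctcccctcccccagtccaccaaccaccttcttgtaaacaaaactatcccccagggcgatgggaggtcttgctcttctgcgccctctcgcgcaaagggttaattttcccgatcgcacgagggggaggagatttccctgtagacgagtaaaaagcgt
Acacb: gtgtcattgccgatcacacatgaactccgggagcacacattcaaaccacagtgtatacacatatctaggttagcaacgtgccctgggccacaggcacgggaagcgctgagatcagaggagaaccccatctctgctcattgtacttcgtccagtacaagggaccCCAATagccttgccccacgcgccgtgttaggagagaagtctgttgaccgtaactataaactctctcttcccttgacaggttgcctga

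The CCAAT box is the element that the factor NF-Y binds, a partner of SREBP on lipogenic promoters. Thrsp held 2 CCAAT boxes, the nearer starting 52 bases before the start site. Fasn held 3, of which 2 overlap in a single run of 8 letters that begins 62 bases before the start. Acacb held 1 CCAAT box and, at 34 bases before the start, a TATA box (TATAAA). The Elovl6 window held none of the 6 motifs searched. RefSeq gave 12 such windows for 9 of the 10 genes. Scd1 was not in the table. Of the 9 genes, 6 had a CCAAT box in at least 1 window, whereas 33.8% of 32851 RefSeq promoters hold that motif. The GC box (GGGCGG) was in windows of 4 genes, with a share of 32.7% over all promoters, and TATAAA was in that of Acacb alone, with a share of 12.4%. The sterol regulatory element core TCACNCCAC (1.05% of all promoters), the E-box CACGTG (6.02%) and a direct repeat of AGGTCA with a gap of 4 bases (0.0152%) were in none of the 12. A match is a string of letters and not a bound site, and genes with several start sites had several chances to hold a motif.

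Srebf1 encodes SREBP-1, which turns on the genes of fatty acid synthesis. It lies at chr11:60199089-60222581 on the minus strand of GRCm38. Its expression was 46.0 and 41.7 CPM in WT refed livers, 34.3, 41.2 and 37.7 CPM in WT fasting livers and 43.8, 28.6, 33.3, 36.8 and 19.6 CPM in NAMPT LKO fasting livers. The WT fasting livers lay just below the refed ones, by less than the spread among the NAMPT LKO livers. The log2 fold change was -0.22 (SE 0.26) in WT fasting against WT refed, with an edgeR adjusted p of 0.669. Against WT fasting, NAMPT LKO fasting livers differed by -0.22 (SE 0.21, edgeR adjusted p = 0.860). The lowest value, 19.6 CPM, was that of NAMPT LKO liver 5, and without this liver the difference from WT fasting was -0.083. After removal of the GC trend of every library, the value of that liver was 27.2 CPM, still the lowest of the 10. RefSeq lists 3 start sites for Srebf1, and a count per gene does not separate SREBP-1a from SREBP-1c. Its exons share 175 bases with Rai1 on the opposite strand and with Mir6922, and the counting is not stated to use strand.

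Acly encodes ATP citrate lyase, which makes cytosolic acetyl-CoA (chr11:100476353-100528000, minus strand). It was at 98.9 and 116 CPM in WT refed livers, 74.3, 75.2 and 91.3 CPM in WT fasting livers and 107, 81.5, 88.3, 71.7 and 94.5 CPM in NAMPT LKO fasting livers. WT fasting livers all lay below the refed livers, whereas NAMPT LKO liver 1 reached the refed range. The WT fasting difference was a log2 fold change of -0.42 (SE 0.17, edgeR adjusted p = 0.168). Me1 encodes cytosolic malic enzyme, a source of NADPH (chr9:86581371-86695953, minus strand, sharing 30 exonic bases with the opposite-strand gene A330041J22Rik). Its values of 133 and 110 CPM in WT refed, 161, 123 and 104 CPM in WT fasting and 135, 157, 121, 151 and 115 CPM in NAMPT LKO fasting livers overlapped throughout. The log2 fold change of Me1 in WT fasting against WT refed livers was 0.09 (95% interval -0.34 to 0.52), and its sign turned with the library left out.

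Acetyl-CoA carboxylase is encoded by Acaca, the cytosolic enzyme that feeds fatty acid synthesis, and by Acacb, the enzyme at the outer mitochondrial membrane whose malonyl-CoA restrains fatty acid import. Acaca (chr11:84129672-84401651, plus strand) was at 45.4 and 44.7 CPM in WT refed, 35.1, 38.3 and 40.8 CPM in WT fasting and 49.3, 38.2, 33.8, 31.5 and 41.8 CPM in NAMPT LKO fasting livers. Acacb (chr5:114146535-114250761, plus strand) was at 47.8 and 48.9 CPM in WT refed, 61.4, 50.9 and 55.2 CPM in WT fasting and 49.5, 64.4, 60.7, 44.4 and 50.9 CPM in NAMPT LKO fasting livers. In WT mice the carboxylases thus ran opposite ways, Acaca lower and Acacb higher in every fasting liver than in the refed ones, and neither difference passed the test (log2 fold changes of -0.24, SE 0.17, and 0.21, SE 0.16, with edgeR adjusted p of 0.448 and 0.495).

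The ratio of Acaca to Acacb counts within a library needs no scaling between libraries, but it keeps any GC trend of the library. It was 0.949 and 0.915 in WT refed livers, 0.572, 0.753 and 0.740 in WT fasting livers, and 0.995, 0.593, 0.557, 0.710 and 0.822 in NAMPT LKO fasting livers. All 3 WT fasting livers lay below both refed livers. The mean log2 ratio differed by -0.45 between these groups, with a two-sided exact permutation p of 0.1, the smallest that 3 mice against 2 allow (0.2 after Benjamini-Hochberg adjustment over 2 comparisons). For NAMPT LKO fasting against WT fasting livers the difference was 0.073 (two-sided exact permutation p = 0.786, adjusted 0.786, smallest possible 0.0179), and NAMPT LKO liver 1 was above both refed livers. Acaca and Acacb differ in GC content (49.1% and 56.7%). In NAMPT LKO liver 5, removal of the GC trend moved Acaca from 41.8 to 40.2 CPM and Acacb from 50.9 to 66.0 CPM. The part of GC content in the ratio was not tested.

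**Figure D1:**
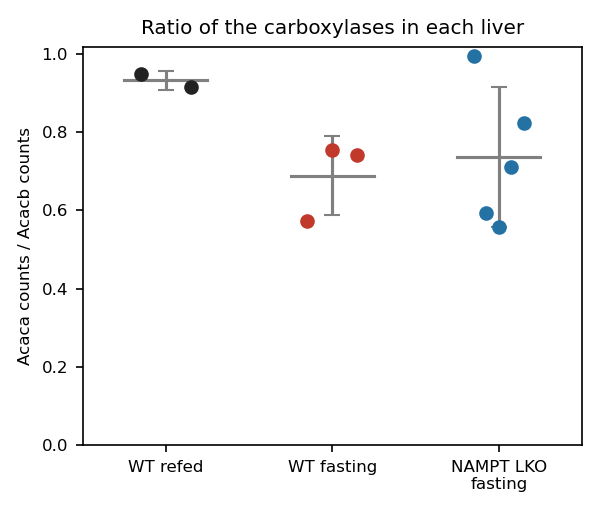
Ratio of Acaca to Acacb counts on the vertical axis (no unit) for each liver, by group, with the mean and SD in gray. The WT refed livers sit at 0.915 and 0.949 and the WT fasting livers between 0.572 and 0.753, whereas the NAMPT LKO fasting livers span 0.557 to 0.995.

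Fasn encodes fatty acid synthase, which builds palmitate (chr11:120805940-120824178, minus strand). It was at 169 and 157 CPM in WT refed livers, 82.3, 95.3 and 104 CPM in WT fasting livers and 143, 74.1, 60.1, 78.6 and 66.8 CPM in NAMPT LKO fasting livers. Every fasting liver was below both refed livers, and NAMPT LKO liver 1 was the only fasting liver near them. In WT fasting livers Fasn was 1.73-fold lower than in refed ones (log2 fold change -0.79, SE 0.30), and the difference did not pass the test after adjustment (unadjusted p = 0.0236, edgeR adjusted p = 0.148). In bulk liver, fewer cells of a type and less RNA per cell cannot be told apart, for Fasn or any gene below. NAMPT LKO fasting livers were 1.93-fold lower than WT refed ones (log2 fold change -0.94, SE 0.27, edgeR adjusted p = 0.0455). This call was held in 9 of 16 alternatives, with edgeR, limma or DESeq2 adjusted p from 0.00121 to 0.241, and it was lost with the compared groups alone, without either refed liver or without NAMPT LKO liver 2, 3, 4 or 5. Without NAMPT LKO liver 1 the log2 fold change was -1.22.

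Elovl6 encodes the elongase that takes palmitate to stearate (chr3:129532386-129638495, plus strand). It was at 53.4 and 60.7 CPM in WT refed livers, 31.0, 27.5 and 21.2 CPM in WT fasting livers and 40.2, 25.0, 21.5, 17.9 and 45.7 CPM in NAMPT LKO fasting livers. All 8 fasting livers were below both refed livers. The difference in WT mice was 2.15-fold (log2 fold change -1.10, SE 0.35, edgeR adjusted p = 0.0849), and Elovl6 was called in 7 of 14 alternatives. In NAMPT LKO fasting against WT refed livers the log2 fold change was -0.93 (SE 0.31, edgeR adjusted p = 0.0822), and Elovl6 was called in 7 of 16 alternatives (edgeR, limma or DESeq2 adjusted p from 0.000899 to 0.400). The highest fasting value was that of NAMPT LKO liver 5, the library with the GC trend, and without it this log2 fold change was -1.13 (edgeR adjusted p = 0.0164). With the trend removed the value in that liver was 38.3 CPM in place of 45.7.

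Scd1 encodes the stearoyl-CoA desaturase that makes oleate (chr19:44394451-44407709, minus strand). It was at 793 and 415 CPM in WT refed livers, 400, 860 and 601 CPM in WT fasting livers and 643, 1432, 662, 1006 and 537 CPM in NAMPT LKO fasting livers. The refed livers differed from each other by nearly as much as the WT fasting livers did, and the groups overlapped. The log2 fold change of WT fasting against WT refed was 0.039 with a 95% interval of -0.93 to 1.01. The values thus leave room for a change of up to about that size in either direction. Against WT fasting, NAMPT LKO fasting livers had a log2 fold change of 0.46 (SE 0.36, edgeR adjusted p = 0.844). Scd1 made up 40.2% to 74.7% of the summed deposited CPM of the 10 genes, the highest share in NAMPT LKO liver 2. A sum over the pathway therefore follows Scd1 more than the other 9 genes.

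Thrsp encodes Spot 14, a small protein that promotes fatty acid synthesis and responds to thyroid hormone and carbohydrate (chr7:97412938-97417730, minus strand). It was at 45.0 and 38.8 CPM in WT refed livers, 11.4, 26.8 and 16.8 CPM in WT fasting livers and 15.0, 15.5, 10.7, 24.0 and 16.7 CPM in NAMPT LKO fasting livers. Every fasting liver of either genotype lay below both refed livers. The fit gave Thrsp the largest difference of the 9 genes tested in WT fasting against WT refed, 2.29-fold (log2 fold change -1.19, SE 0.34, edgeR adjusted p = 0.0623), although Elovl6 exceeded it without WT refed liver 1 or WT fasting liver 1. Without WT fasting liver 2, the highest of its group, the log2 fold change was -1.57 and the edgeR adjusted p 0.0328. In NAMPT LKO fasting against WT refed livers it was 2.55-fold lower (log2 fold change -1.35, SE 0.30, edgeR adjusted p = 0.0177). This call held in 14 of 16 alternatives (edgeR, limma or DESeq2 adjusted p from 0.000522 to 0.145), and was lost without either refed liver.

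Pnpla3 encodes a lipid droplet protein with a role in hepatic triglyceride handling (chr15:84167816-84189512, plus strand). It had 8 and 4 counts in WT refed livers, 7, 0 and 5 in WT fasting livers and 10, 3, 11, 6 and 2 in NAMPT LKO fasting livers, at most 0.327 deposited CPM. It did not pass the filter of more than 1 CPM in at least 1 library and was not tested. A difference in Pnpla3 between the groups was not detectable at this depth.

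**Figure D2:**
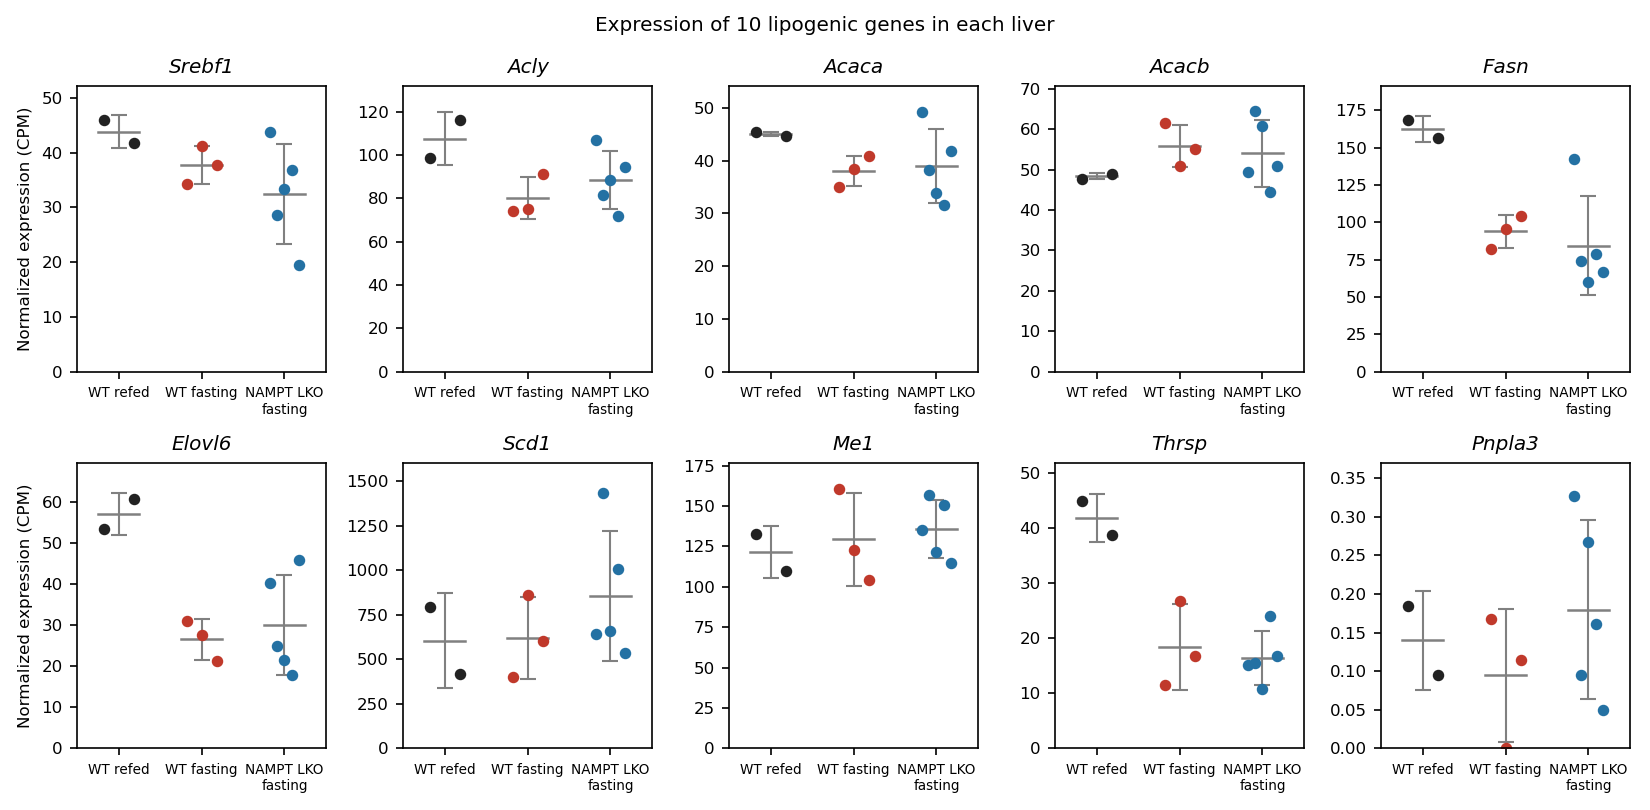
Expression of each of the 10 genes on the vertical axis (TMM-normalized CPM, and deposited CPM for Pnpla3), 1 point per liver, with mean and SD in gray, for WT refed (black), WT fasting (red) and NAMPT LKO fasting (blue). Fasn, Elovl6 and Thrsp show both refed livers above all 8 fasting livers, whereas Scd1 and Me1 overlap throughout.

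Across the comparison of WT fasting with WT refed livers, 0 of the 9 genes tested were called at an edgeR adjusted p at or under 0.05, where 7.02% of all 13477 genes were. At an unadjusted p under 0.05 there were 4 (Thrsp, Elovl6, Fasn and Acly), where 22.3% of all genes were. The groups did not overlap for 7 genes, 6 lower in fasting and Acacb higher, whereas 49.6% of all genes had groups that did not overlap. The median log2 fold change of the 9 genes was -0.24, and that of all genes 0.037. Fitting only these groups called Fasn and Elovl6, among 1638 of 13080 genes called in all. Elovl6 and Thrsp were called by edgeR's exact test, by DESeq2 and with the GC trend removed. These fits called 1188, 1647 and 1424 of 13477 genes in all. The voom method of limma with quality weights, named in the study's methods, called Fasn, Acly, Elovl6 and Thrsp, among 3330 genes in all. The calls for these genes thus turned on the test.

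In NAMPT LKO fasting against WT fasting livers 0 of the 9 genes were called, and the edgeR fit called 1 gene in all, Nampt, which is 0.00742% of those tested. DESeq2 called 21 genes in all and edgeR's exact test 24, with none of the 9 among them. At an unadjusted p under 0.05 there were also 0 of the 9, where 6.05% of all genes were, and the groups overlapped for each of the 9, where they did not for 3.98% of all genes. The log2 fold changes ran from -0.22 for Srebf1 to 0.46 for Scd1, 4 below 0 and 5 above, with a median of 0.031 against 0.00017 for all genes. These values do not show that the genotypes are alike. The 95% interval of the log2 difference was -0.69 to 0.38 for Fasn, -0.78 to 0.45 for Thrsp, -0.45 to 0.80 for Elovl6 and -0.32 to 1.25 for Scd1, whereas for Acaca it was narrower, -0.28 to 0.34. Summed cholangiocyte markers were 35.0 to 51.2 deposited CPM in NAMPT LKO fasting livers and 15.3 to 21.2 in WT fasting livers, and their part in these values was not tested. Most of that sum came from Spp1 (8.70 to 35.5 deposited CPM over all libraries) and Sox9 (5.31 to 10.8). Krt19, Krt7, Epcam and Cftr were each at most 2.61 deposited CPM.

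NAMPT LKO fasting livers compared with the same WT refed libraries had 2 of the 9 genes called, Thrsp and Fasn, both lower, where 11.2% of all genes were called. At an unadjusted p under 0.05 Elovl6 joined them, 3 of 9 against 26% of all genes. The same 3 were those whose groups did not overlap, against 33.5% of all genes. Because the refed libraries are shared, this is no second measurement of refeeding. Side by side, the log2 fold changes against WT refed in WT fasting and in NAMPT LKO fasting livers were -1.19 and -1.35 for Thrsp, -1.10 and -0.93 for Elovl6, -0.79 and -0.94 for Fasn, -0.42 and -0.28 for Acly and 0.21 and 0.16 for Acacb.

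**Figure D3:**
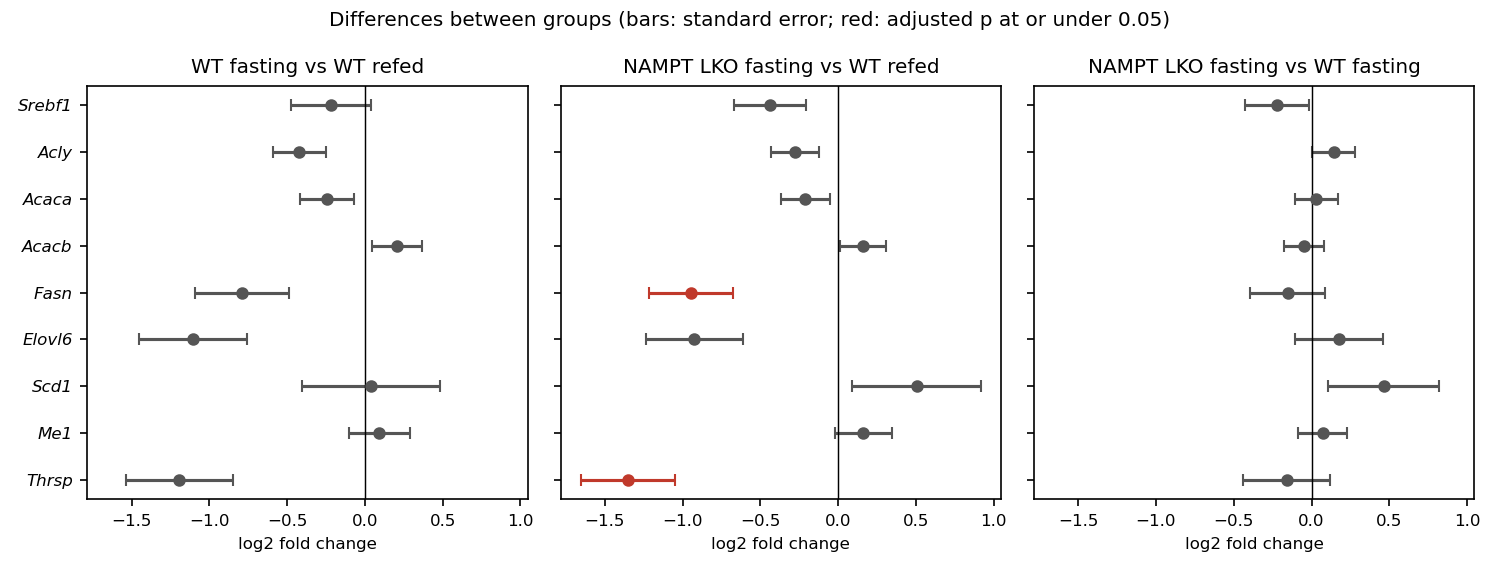
Log2 fold change (horizontal axis, log2 scale) of the 9 genes tested in each of the 3 comparisons, with standard errors as bars, and in red those with an edgeR adjusted p at or under 0.05. Thrsp, Elovl6 and Fasn sit between -0.79 and -1.35 in both comparisons with WT refed livers, and all 9 sit between -0.22 and 0.46 in NAMPT LKO fasting against WT fasting.

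Adipocyte markers were also higher in the refed livers, with a summed 751 to 867 deposited CPM against 309 to 701 in WT fasting and 281 to 557 in NAMPT LKO fasting livers. This sum was nearly all Car3 (280 to 866 deposited CPM), which the liver also expresses. The defining adipocyte genes Adipoq, Lep, Plin1 and Retn were near 0 in every library, with at most 0.223 deposited CPM for Adipoq, 0.107 for Lep, 0.0961 for Plin1 and 0.0486 for Retn. The remaining marker, Cfd, was at 0.196 to 1.71 deposited CPM.

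Individual livers within a group differed in the same direction for several of the genes. Of the 8 fasting livers, NAMPT LKO liver 1 had the highest Srebf1, Fasn, Acaca and Acly, and NAMPT LKO liver 4 the lowest Acaca, Acacb, Acly and Elovl6. The coefficient of variation in NAMPT LKO fasting livers was 39.5% for Fasn, 40.6% for Elovl6 and 42.9% for Scd1, against 13.3% for Me1. With each gene set to its own mean and spread and averaged over the 9, the profile across the 10 livers correlated with Fasn at r = 0.894 and with Acaca at 0.776, and with Scd1, Me1 and Acacb at 0.039, -0.0077 and -0.29. The gene itself is part of that average. Scd1, Me1 and Acacb did not follow the rest.

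Per length of transcript, in the deposited RPKM, Scd1 had the highest level in each group, with 129 ± 57.2 (SD, n = 2) in WT refed, 126 ± 43.1 (SD, n = 3) in WT fasting and 173 ± 78.5 (SD, n = 5) in NAMPT LKO fasting livers. Thrsp ranked next in WT refed livers, with 33.8 ± 3.62 RPKM (SD, n = 2), overlapping Me1 at 32.5 ± 4.44. In WT fasting livers Thrsp, at 14.1 ± 5.53 RPKM (SD, n = 3), came after Me1 (33.3 ± 7.61) and overlapped Acly (15.1 ± 2.18) and Fasn (9.44 ± 1.21). Fasn, Srebf1, Acacb and Elovl6 followed between 4.41 and 9.44 RPKM, the last 3 with ranges that overlapped their neighbours. Elovl6 stood above Srebf1 and Acacb in WT refed livers, at 9.88 ± 0.862 RPKM (SD, n = 2), and by group means below both in either fasting group, where its range overlapped that of Acacb and, in NAMPT LKO fasting livers, that of Srebf1. Acaca, the carboxylase of fatty acid synthesis, was at 3.06 RPKM in WT refed and 2.49 in WT fasting livers, below Acacb at 5.17 and 5.74. Pnpla3 had the lowest level in every group, at 0.0204 to 0.0388 RPKM.

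**Figure D4:**
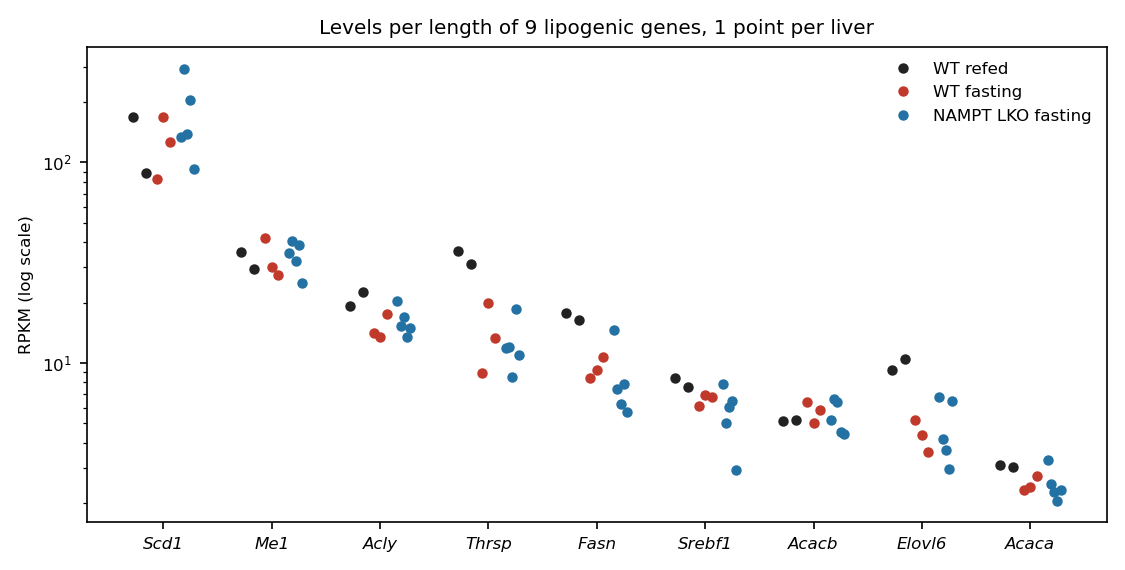
Deposited RPKM of 9 of the genes on a log axis, 1 point per liver, for WT refed (black), WT fasting (red) and NAMPT LKO fasting (blue), ordered by their mean in WT fasting livers. Scd1 stands apart at the top, with group means of 126 to 173 RPKM, and Thrsp and Elovl6 show the refed points above the fasting ones.

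The 8 genes outside the 10 whose expression across the livers was most like the averaged profile were Cfap298 (Pearson r = 0.942 over 10 livers), Fam102a (0.937), Pdgfa (0.921), Xpnpep1 (0.917), Tirap, Nme6, Fkbp11 and Nol9 (0.879), among the 9138 genes that averaged 5 CPM or more. These values describe a ranking, and livers of a group share their treatment. Nme6 had the steepest step among them, from a mean of 14.8 CPM in WT refed to 5.36 in WT fasting and 5.78 in NAMPT LKO fasting livers.

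Upstream of lipogenesis, 20 genes of SREBP processing and of the transcription factors that act on these promoters were tested. In WT fasting against WT refed livers 1 of them rose and 0 fell, where 7.02% of all genes were called in either direction. The riser was Insig2, which holds the SREBP complex in the endoplasmic reticulum, from 105 ± 15.3 CPM (SD, n = 2) to 356 ± 70.8 (SD, n = 3), a log2 fold change of 1.77 (SE 0.25, edgeR adjusted p = 0.00273). Nr1h3, which encodes the liver X receptor alpha that acts on Srebf1, had a log2 fold change of -0.41 (edgeR adjusted p = 0.0548), and Nfyb, a subunit of the NF-Y complex that binds CCAAT boxes, one of -0.64 (edgeR adjusted p = 0.0568). Against the same refed livers, where 11.2% of all genes were called, NAMPT LKO fasting livers had 1 riser, Insig2. In that comparison 3 genes fell, Nr1h3, Nfyb and Mlx, the partner of ChREBP. The 3 falls were lost without either refed liver, and the rise of Insig2 without WT refed liver 1. None of the 20 was called between the fasting genotypes, where the lowest unadjusted p were those of Mlx (log2 fold change -0.35) and Usf1 (-0.30), with edgeR adjusted p of 0.801 and 0.825.

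Among genes that supply carbon and NADPH, 15 of 16 were tested. Pcx, which makes oxaloacetate from pyruvate, and Acss2, which makes acetyl-CoA from acetate, had log2 fold changes of 0.35 and 0.22 in WT fasting against WT refed livers and did not pass. Knockout fasting livers had none of the 15 called against WT fasting ones. All 15 log2 fold changes were below 0, from -0.39 to -0.039 with a median of -0.18, while 49.9% of all genes were below 0. Acly and Me1, which also supply acetyl-CoA and NADPH but are not on this list, were above 0 in that comparison, at 0.14 and 0.071. The number below 0 was 12 of 15 without WT fasting liver 3, without NAMPT LKO fasting liver 3 or with voom weights, and the median without WT fasting liver 3 was -0.097. Aldh1l1, a folate enzyme that yields NADPH, had the lowest unadjusted p of this list, with 511 ± 39.4 CPM (SD, n = 5) against 660 ± 144 (SD, n = 3).

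The regulators of acetyl-CoA carboxylase held 10 genes, all tested. In WT fasting against WT refed livers 1 of them rose and 1 fell, where 7.02% of all genes were called in either direction. Mid1ip1, whose protein promotes polymerization of the carboxylase and is related to Spot 14, fell in WT fasting livers from 24.1 ± 4.24 CPM (SD, n = 2) to 10.1 ± 3.32 (SD, n = 3), a log2 fold change of -1.26 (SE 0.25, edgeR adjusted p = 0.0142). Trib3, a pseudokinase linked to breakdown of the carboxylase, rose with a log2 fold change of 1.11 (SE 0.26, edgeR adjusted p = 0.0274). The Trib3 call was lost with normalization by library size alone and without WT fasting liver 2 or 3. Both calls were lost without either refed liver. The other 8, kinase subunits such as Prkag2 (-0.45) among them, did not pass. Mid1ip1 and Thrsp, relatives by sequence and function, thus were both lower in every WT fasting liver than in the refed ones.

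Of 11 other desaturases and elongases, Elovl3, which makes very long saturated chains, rose in WT fasting livers, from 37.7 ± 0.743 CPM (SD, n = 2) to 121 ± 27.2 (SD, n = 3), with a log2 fold change of 1.69 (SE 0.29, edgeR adjusted p = 0.00769), a call that was lost without either refed liver. Elovl3 was the 1 gene of the 11 called there, where 7.02% of all genes were. Elovl6 thus had the opposite sign to Elovl3 between the same livers. Elovl1 (-0.51) and Hsd17b12 (-0.20) did not pass. Against WT fasting, Elovl3 in NAMPT LKO fasting livers had a log2 fold change of -0.50 with an edgeR adjusted p of 0.825.

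SREBP-2 is the family member that drives sterol synthesis. Of 18 of its targets, 6 fell and 0 rose in WT fasting against WT refed livers, with a median log2 fold change of -1.08, where 7.02% of all genes were called, and all 18 values were below 0, as were 46.4% of all genes. The number that fell was 1, Mvd, without either refed liver and 14 with voom. Mvd fell by 3.08 on the log2 scale (SE 0.47, edgeR adjusted p = 0.00403), Mvk by 1.17 and Lss by 1.46, which are enzymes of the mevalonate route and of lanosterol synthesis. Between the fasting genotypes 0 of 18 were called. The median was 0.11 with 5 of 18 below 0, but -0.17 with 16 of 18 below 0 without NAMPT LKO liver 5, and -0.088 with 15 of 18 below 0 with voom.

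Genes known to follow the feeding state are given for reference, beside the 7.02% of all genes called in WT fasting against WT refed livers. Of 11, 6 rose in WT fasting livers (Angptl4, Pck1, Igfbp1, G6pc, Pdk4 and Fgf21), and Cpt1a, Irs2 and Ppargc1a were higher in every fasting liver without passing the test. The number that rose was 4 without WT refed liver 1, with G6pc and Pdk4 lost, and 2, Angptl4 and Pck1, without WT refed liver 2. Pck1, of gluconeogenesis, went from 1606 ± 55.8 CPM (SD, n = 2) to 4254 ± 381 (SD, n = 3). Igfbp1, which binds insulin-like growth factors, rose with a log2 fold change of 7.65 (SE 1.13, edgeR adjusted p = 0.00375). None of the 11 was called between the fasting genotypes.

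**Figure D5:**
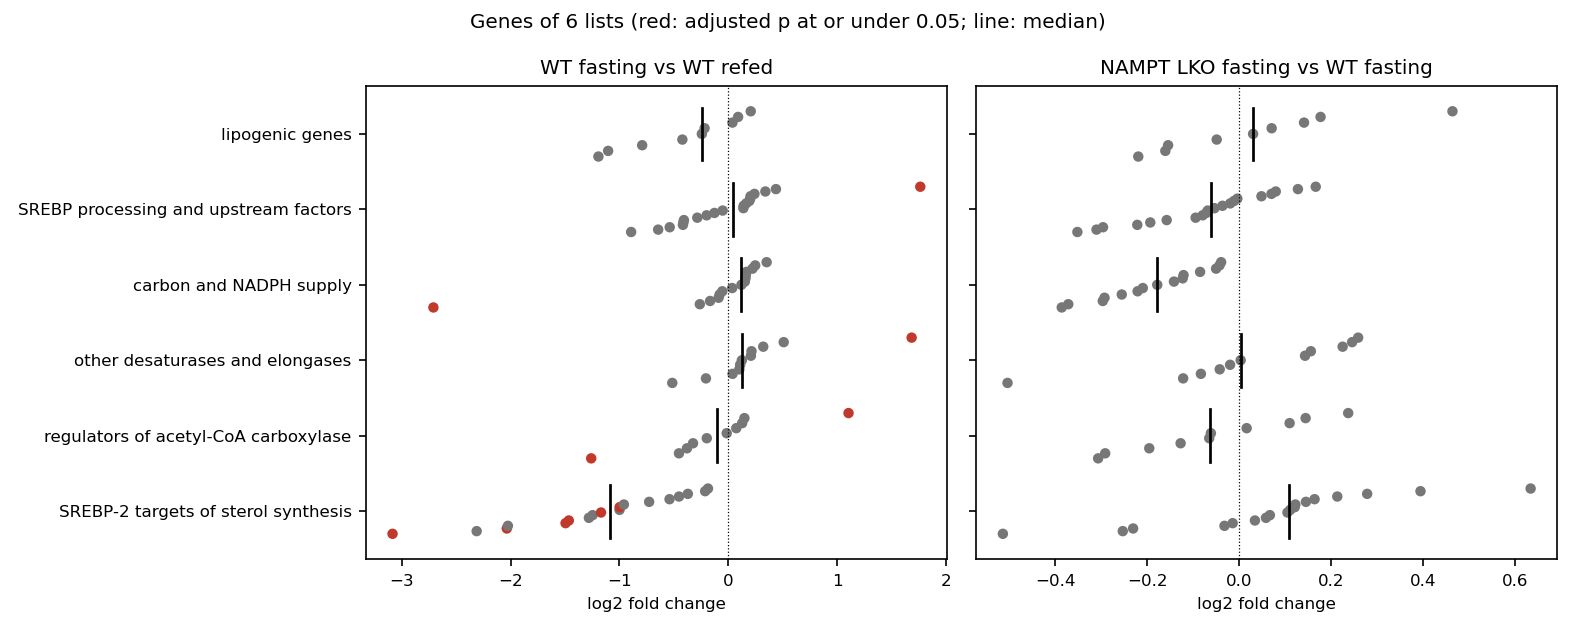
Log2 fold change (horizontal axis, log2 scale, with a different range in each panel) of the lipogenic genes and of 5 other lists, 1 point per gene, with the list's median as a line and red for an edgeR adjusted p at or under 0.05. In WT fasting against WT refed livers (left) the SREBP-2 targets lie lowest, with a median of -1.08 against -0.24 for the lipogenic genes, and in NAMPT LKO fasting against WT fasting livers (right) no gene of these lists is red.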

How the data were processed

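Poly-A selected liver RNA of 10 mice was sequenced as single reads. Per the labels, the authors aligned reads to GRCm38 with STAR 2.5.1a and assigned unique alignments to Ensembl genes with featureCounts 1.4.6-p5. The study's methods give other versions, and use of strand is not stated, so genes that overlap on opposite strands cannot be separated. The authors deposited raw counts per gene. The CPM values that the authors deposited scale these counts by the library total, and the RPKM values that the authors deposited divide them further by exonic length. Each liver is 1 library, no replicate pair agreed within sampling noise, and the total count limits precision.

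Counts were TMM-normalized and tested with the quasi-likelihood test of edgeR 4.0.16 in R 4.3.3 (limma 3.58.1 for voom, DESeq2 1.42.0 as an alternative), with 10 libraries in 1 fit, a mean per group, genes above 1 CPM in at least 1 library, no rRNA genes, and Benjamini-Hochberg adjustment over 13477 genes. Standard errors are the log2 fold change over the root of the F statistic, and 95% intervals use them with the test's total degrees of freedom. Ratios were tested by exact permutation (Python 3.11.15). Alternatives were other normalizations, filters and tests, fits of the compared groups alone, removal of each library's GC trend (loess span 0.5), a replicate block and the omission of each library in turn. The genes and lists were chosen with earlier results of these data known.

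Named genes are the 10 genes, Nampt, all feeding state genes, from each other list the 3 lowest p in WT fasting against WT refed and the 2 lowest in NAMPT LKO fasting against WT fasting, and the 8 genes most alike in profile. Not every gene the rule selects is reported here. The test was tested on simulated data with 200 genes changed. For WT fasting against WT refed it recovered 39 of 100 at a log2 fold change of 1 and 78 of 100 at 2, with 4 false calls among 13187 genes. For NAMPT LKO fasting against WT fasting it recovered 67 and 90 of 100, with 10 false calls among 13154 genes.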

Additional observations from a re-analysis of the deposited data

Results flagged for a closer look

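Among 5 NAMPT LKO fasting livers, Fasn in liver 1 was at 143 CPM and lay far from the other 4, which were at 60.1 to 78.6 CPM. The gap to the nearest of them was 0.776 of the group's whole range, above Dixon's 95% critical value of 0.71 for 5 samples. Of 12 values examined in that group, 1 passed the limit, and chance passes about 1 in 20. The same liver had the highest Srebf1, Acaca and Acly of the 8 fasting livers, and the cause was not tested. Without it, the log2 fold change of Fasn in NAMPT LKO fasting against WT fasting livers was -0.43 in place of -0.15 (edgeR adjusted p = 0.768). Removal of the GC trend put Fasn at 132 CPM in NAMPT LKO liver 1 and at 90.9 CPM in liver 5, in place of 66.8. Livers 2, 3 and 4 were then at 75.0, 56.2 and 76.6 CPM. Dixon's limit was not applied to these values.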

How the results depend on the processing

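Of 441 alternative values for the 27 log2 fold changes of the lipogenic genes, 389 kept their sign and their side of the threshold, 25 passed it, 9 fell short of it and 18 turned sign. In WT fasting against WT refed livers, 2 genes were called in place of 0 with library size alone, no filter, edgeR's exact test, DESeq2, the compared groups alone or the GC trend removed, 4 with voom, and 0 to 1 when a library was left out. Called genes in all numbered 3330 (voom), 1647 (DESeq2), 1638 (compared groups alone), 1424 (GC trend removed) and 107 to 782 (a library left out) in place of 946. In NAMPT LKO fasting against WT fasting livers the 9 genes had 0 calls in each alternative run, and called genes in all numbered 2 (library size alone), 3 (filterByExpr), 17 (no filter), 24 (exact test), 21 (DESeq2), 3 (GC trend removed) and 1 to 2 (a library left out) in place of 1. In NAMPT LKO fasting against WT refed livers, 2 genes became 4 with voom, 3 (Elovl6 added) with library size alone, no filter, the exact test, DESeq2 or the GC trend removed, 1 with the compared groups alone and 0 to 2 when a library was left out, and 1508 called genes became 4284 with voom and 227 to 2833 with a library left out, the lowest without WT refed liver 2, with 347 without WT refed liver 1, and the highest without NAMPT LKO fasting liver 5. Library size alone moved the median log2 fold change of all genes in WT fasting against WT refed from 0.037 to -0.026, and the split of calls from 360 higher and 586 lower to 252 and 727. When 1 refed liver was left, it was assumed to vary like the other groups. The cause of these changes was not tested.

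Turned signs were all of values that passed no test. In WT fasting against WT refed livers Scd1 was -0.036 with library size alone, and with a library left out Scd1 ran from -0.36 to 0.57, with -0.27 without WT fasting liver 2, and Me1 from -0.11 to 0.22, with -0.048 without WT refed liver 2. In NAMPT LKO fasting against WT fasting livers voom gave -0.00031 for Acaca, 0.022 for Acacb and -0.13 for Elovl6, and the GC trend removed gave 0.063 for Acacb. With a library left out Acaca ran from -0.068 to 0.098 (-0.024 without WT fasting liver 1), Acacb from -0.12 to 0.026 (0.014 without NAMPT LKO liver 4), Elovl6 from -0.024 to 0.32, Me1 from -0.062 to 0.26, Thrsp from -0.41 to 0.22, and the difference of the log2 Acaca to Acacb ratio from -0.055 to 0.17 (-0.044 without NAMPT LKO liver 1). In WT fasting against WT refed that ratio ran from -0.52 to -0.32.

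The labels do not say whether the replicate numbers pair mice, and the main fit did not pair them. Same-numbered NAMPT LKO fasting and WT fasting livers had deviations that correlated at 0.077, 0.161 and 0.095, against -0.12 to -0.011 for other pairs. Each liver thus correlated best with its own number, a hint from the data and not from the design. The deviations were taken from group means and cancel within a group, so the values of same-numbered and other pairs are not independent of each other. Over the libraries numbered 1 to 3, the replicate block called 0 genes and the same libraries with no replicate block called 0, with Acacb at 0.056 and 0.060, and the 9 lipogenic genes had 0 calls in both.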
